A study of Mus musculus with 6 samples.

Results

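The interferon response genes described here are 39 genes that interferons switch on in mouse cells, taken by name, and each was followed through all 6 arrays on every probe set of its own. A probe set is a group of array probes summed to 1 value. Of the 39 genes, 33 had at least 1 probe set annotated to that gene alone, 35 probe sets in all out of 28815 on the array, since Irf1 and Ifitm1 each had 2. Isg15, Ifi47, Gbp2, Gbp6 and Igtp were present only on probe sets shared with other genes and are given no values, and Ifi44 is not analysed here. Mx1, Mx2 and Iigp1 lay below the filter on dim probe sets, which left 30 genes on 32 probe sets among the 17289 tested.

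Hematopoietic stem cells (HSC), from which every blood lineage arises in the bone marrow, were profiled. There were 3 arrays of HSC from Selp-/- mice, which lack the gene for P-selectin, an adhesion receptor of platelets and vessel walls, and 3 of HSC from wild-type (WT) mice, which the labels also call B6. Both genotypes are labelled C57BL/6, and the arrays of each are numbered 1 to 3. No treatment and no age is given. The purpose of the comparison was to learn how P-selectin acts on HSC. The labels do not say that the arrays of a genotype stem from different mice. The p-values below therefore reflect only how far these arrays spread, and the technical and biological parts of that spread were not separated.

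Levels are log2 intensities after background correction and quantile normalization, and a difference is Selp-/- minus WT on that scale. Median deposited intensities ran from 638 to 713 on the Selp-/- arrays and from 563 to 751 on the WT arrays. No probe set was named Selp, so the genotype labels were not checked by the deleted gene. The cell type label was checked with 14 HSC markers, of which 13 were tested. Their summed normalized intensity, on the linear scale, was 25027, 32781 and 9580 on Selp-/- 1, 2 and 3, against 28084, 29217 and 10219 on WT 1, 2 and 3. The markers were thus low on the array numbered 3 of each genotype, and 12 of the 13 were lower there than on the other arrays in limma, as were 10.5% of all probe sets. Hlf, which encodes a transcription factor typical of stem cells and is named here after its values were seen, lay at 12.13, 12.53 and 8.81 in Selp-/- and 12.45, 12.37 and 8.88 in WT. In bulk RNA, fewer cells of a type and less RNA per cell cannot be told apart. Xist, which is transcribed from the inactive X chromosome, had deposited intensities of 10757, 8450 and 398 in Selp-/- and of 7764, 10286 and 5010 in WT. Because the arrays numbered 3 stand apart from the others, values are given with them and without them.

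Interferons are secreted when a cell senses foreign nucleic acid. Type I interferons bind the receptor of Ifnar1 and Ifnar2, and the kinases Jak1 and Tyk2 then start a signal that leads Stat2 and Irf9 to interferon-stimulated response elements (ISRE) in the DNA. Interferon gamma acts through Ifngr1 and Ifngr2, and its target genes carry gamma-activated sites (GAS). HSC are known to respond to interferons by entering the cell cycle, and stem cells are known to hold some interferon-induced genes at a steady level without infection.

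The binding letters of these factors can be read in the promoters of the genes with the largest differences between the arrays numbered 3. RefSeq promoters (GRCm38.p6), from 250 bases before to 50 bases after the gene start, were found for 31 of the 39 genes. An ISRE core, GAAANNGAA on either strand, was present in a promoter of 18 of the 31 genes (58.1%), against 9.76% of all 27025 genes. A GAS core, TTCNNNGAA, which reads the same on both strands, was present in 9 of the 31 (29%), against 9.55% of all genes. The letters of these cores can overlap, and a match is not a measured binding site. The promoters printed are those with an ISRE core and the largest differences (Ifit3, Rsad2, Ifit1, Cxcl10) and those with a GAS core (Ifit2, Oas1a), each 5′ to 3′ on the strand of its gene, with the cores in capitals. Ifit3 (chr19:34583279-34583578, plus strand) has 3 ISRE cores and Ifit1 (chr19:34640639-34640938, plus strand) has 3, while Rsad2 (chr12:26456403-26456702, minus strand) and Cxcl10 (chr5:92348840-92349139, minus strand) have 1 each. Ifit2 (chr19:34550444-34550743, plus strand) has 1 GAS core and no ISRE core in the window. Oas1a (chr5:120907476-120907775, minus strand) has 1 GAS core and 2 overlapping ISRE cores.
Ifit3: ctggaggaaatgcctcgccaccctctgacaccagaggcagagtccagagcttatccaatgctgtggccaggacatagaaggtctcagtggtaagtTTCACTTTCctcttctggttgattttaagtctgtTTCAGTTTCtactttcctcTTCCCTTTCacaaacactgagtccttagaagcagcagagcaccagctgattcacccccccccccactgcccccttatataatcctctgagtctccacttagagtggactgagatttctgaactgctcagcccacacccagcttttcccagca
Rsad2: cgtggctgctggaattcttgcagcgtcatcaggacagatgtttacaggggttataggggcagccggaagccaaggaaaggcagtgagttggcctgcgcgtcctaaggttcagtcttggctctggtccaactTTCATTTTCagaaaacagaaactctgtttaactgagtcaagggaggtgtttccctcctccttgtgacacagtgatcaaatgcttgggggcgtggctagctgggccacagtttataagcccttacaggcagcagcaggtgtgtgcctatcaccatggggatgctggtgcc
Ifit1: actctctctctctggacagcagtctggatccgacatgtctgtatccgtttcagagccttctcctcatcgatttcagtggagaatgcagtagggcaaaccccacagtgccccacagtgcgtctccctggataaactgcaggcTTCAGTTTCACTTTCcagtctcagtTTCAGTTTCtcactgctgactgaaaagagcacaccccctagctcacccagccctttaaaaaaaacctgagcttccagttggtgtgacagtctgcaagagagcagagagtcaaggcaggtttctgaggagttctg
Cxcl10: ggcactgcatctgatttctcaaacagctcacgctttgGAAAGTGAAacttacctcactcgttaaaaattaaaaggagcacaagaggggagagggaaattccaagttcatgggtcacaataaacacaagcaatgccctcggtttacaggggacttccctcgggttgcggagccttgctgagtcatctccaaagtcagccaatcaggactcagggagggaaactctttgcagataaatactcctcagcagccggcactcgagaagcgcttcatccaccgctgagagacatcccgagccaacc
Ifit2: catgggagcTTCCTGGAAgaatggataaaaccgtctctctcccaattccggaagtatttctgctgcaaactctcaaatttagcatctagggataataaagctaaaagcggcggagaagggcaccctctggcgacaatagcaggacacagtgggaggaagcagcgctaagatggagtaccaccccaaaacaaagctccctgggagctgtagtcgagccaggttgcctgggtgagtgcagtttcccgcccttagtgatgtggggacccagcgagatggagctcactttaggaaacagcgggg
Oas1a: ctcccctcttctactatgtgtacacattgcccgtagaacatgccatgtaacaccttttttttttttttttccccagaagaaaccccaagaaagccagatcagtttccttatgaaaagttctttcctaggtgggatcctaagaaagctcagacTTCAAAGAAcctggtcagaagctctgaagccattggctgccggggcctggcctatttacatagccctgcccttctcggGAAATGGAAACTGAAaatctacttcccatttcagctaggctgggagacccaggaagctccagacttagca

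Among genes with a difference over 0.5 between the arrays numbered 3, 6 of 10 had an ISRE core, against 8 of 16 genes at or under 0.5. The promoters of Irf7, Oasl2 and Xaf1, which are among the genes over 0.5, hold neither core in this window.

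No interferon response gene was called between the genotypes, and no other tested probe set was either. The lack of calls is thus not particular to these genes. Without the array number, the fit counts the distance of the arrays numbered 3 from the others as spread. It therefore cannot show that the genotypes are alike. In limma, 0 of the 32 probe sets passed a Benjamini-Hochberg adjusted p of 0.05, where 0 of all 17289 did (0%), and the lowest adjusted p among the members was 1. At an unadjusted p under 0.05 there were 0 members and 122 probe sets in all. With the array number as a block, 0 members and 0% of all probe sets passed, and 4 members (Irf7, Zbp1, Ifitm1 and Cxcl10) against 630 of all probe sets had an unadjusted p under 0.05. The difference was above 0 for 28 of the 32 probe sets and below 0 for 4, with a median of 0.12 and a range from -0.25 to 0.76, beside a median of 0.0054 over all probe sets, of which 51.8% were above 0. On the numbers 1 and 2 alone the median was 0.00, 16 of the 32 were above 0, and limma called 0 members against 0.0231% of all probe sets. Without Selp-/- 3 alone the median was -0.08 and 10 of the 32 were above 0. For 1 member, Ifit2, all 3 Selp-/- arrays lay above all 3 WT arrays, while 2.24% of all probe sets were so ordered. Ifit2 passed the filter only through Selp-/- 3, and all 3 of its WT levels lay below the filter level of 8.79. The opposite order held for 0 members and for 1.97% of all probe sets.

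The differences between same-numbered arrays were spread over the genes on number 3 and small on the numbers 1 and 2. On number 1, Selp-/- was above WT for 13 of 32 probe sets (50.5% of all probe sets), with a median of -0.05 and a range from -0.38 to 0.41. That median changes sign with the scaling, to 0.07 with each array centred on its median and to 0.20 without normalization, where the median of all probe sets itself lay at 0.06 and 0.19. On number 2, 21 of 32 were above 0 (51.9% of all), with a median of 0.05 and a range from -0.36 to 0.45. On number 3, 27 of 32 were above 0 (50.1% of all), with a median of 0.32 and a range from -0.31 to 2.38. A difference over 0.5 was present for 0 members on number 1 (1.74% of all), for 0 on number 2 (2.3% of all) and for 12 on number 3 (2.3% of all). With no background correction 8 members were over 0.5 on number 3, and with no normalization either, 7. The 12 were Ifit3, Ifit2, Rsad2, Ifit1, Irf7, Oasl2, Rtp4, Xaf1, Oas2, Cxcl10, Oas1a and Ifih1. Of these, Ifit3 and Ifit2 passed the filter on dim probe sets only through Selp-/- 3. Each number has 1 array per genotype, so a difference within 1 number has no replicate and no test of its own. In all 3 numbers, 7 probe sets were above 0 (Irf7, Zbp1, Oasl1, Usp18, Ifit2, Rsad2 and Cxcl10), which is 21.9% of the 32 against 12.6% of all probe sets.

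**Figure D1:**
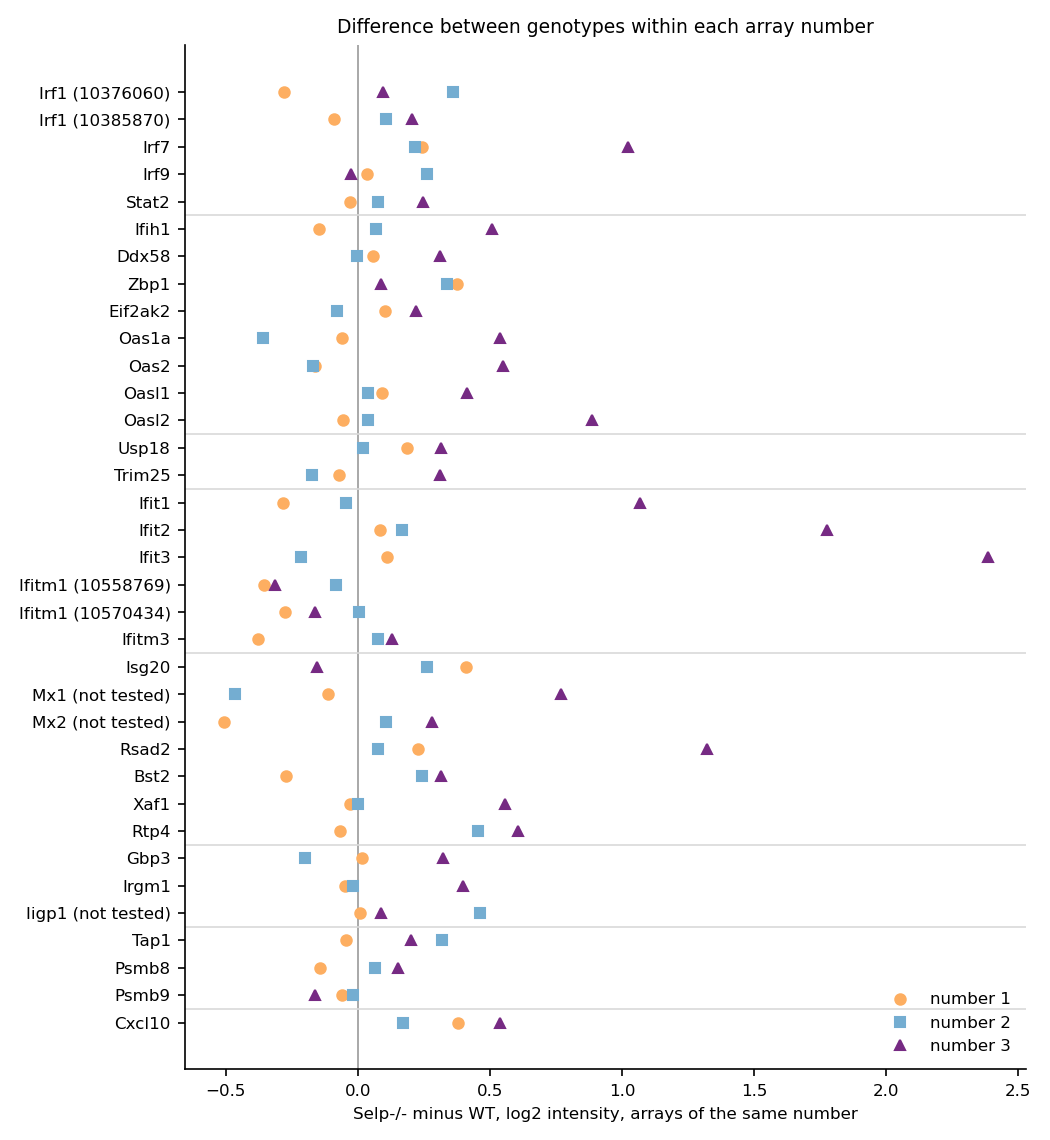
Difference between Selp-/- and WT (log2 intensity) between arrays of the same number for the 35 probe sets of the interferon response genes, with 1 mark per number and grey lines between role groups. The 12 tested probe sets over 0.5 pass it on number 3 only, and Mx1, not tested, lies at 0.77 there.

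Among the IFIT proteins, which bind foreign RNA and block its translation, Ifit3 and Ifit2 had the largest differences of all members on the arrays numbered 3, at 2.38 and 1.78. Ifit3 measured 8.72, 8.56 and 11.49 on Selp-/- 1, 2 and 3, against 8.61, 8.78 and 9.10 on WT 1, 2 and 3. Selp-/- 3 alone was high, and the other 5 arrays lay close together. The deposited intensity of Ifit3 was 3387.5 on Selp-/- 3 and 755 on WT 3, a 5.22-fold ratio after normalization. The means were 9.59 ± 1.64 in Selp-/- and 8.83 ± 0.25 in WT (SD, n = 3 each), a difference of 0.76 with an SE of 0.74. Ifit3 has a close copy in the mouse genome, Ifit3b, and hybridization of its transcript to the same probes was not tested.

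Ifit2 measured 8.81, 8.94 and 10.08 in Selp-/- and 8.73, 8.77 and 8.31 in WT. Every WT level lay below the filter level of 8.79. The genotypes did not overlap, by a small margin on numbers 1 and 2, and the difference of 0.68 (SE 0.34) had an adjusted p of 1 in limma. Ifit1, which binds capped viral RNA, measured 9.16, 9.23 and 10.78 in Selp-/- and 9.44, 9.28 and 9.71 in WT. Selp-/- 3 was again the highest array, and the first 2 Selp-/- arrays lay below every WT array. The difference of Ifit1 was 0.25 (SE 0.42).

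The IFITM proteins, membrane proteins that block the entry of viruses, made up 3 of the 4 probe sets with a genotype difference below 0. Ifitm1 measured 12.52, 12.86 and 13.51 in Selp-/- and 12.87, 12.94 and 13.83 in WT on its brighter probe set. Selp-/- lay below WT in every number there, by 0.35, 0.08 and 0.31 on the log2 scale. The second probe set of Ifitm1 had a difference of -0.14 and Ifitm3 one of -0.06. The arrays numbered 3 held the highest level of both genes in each genotype.

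**Figure D2:**
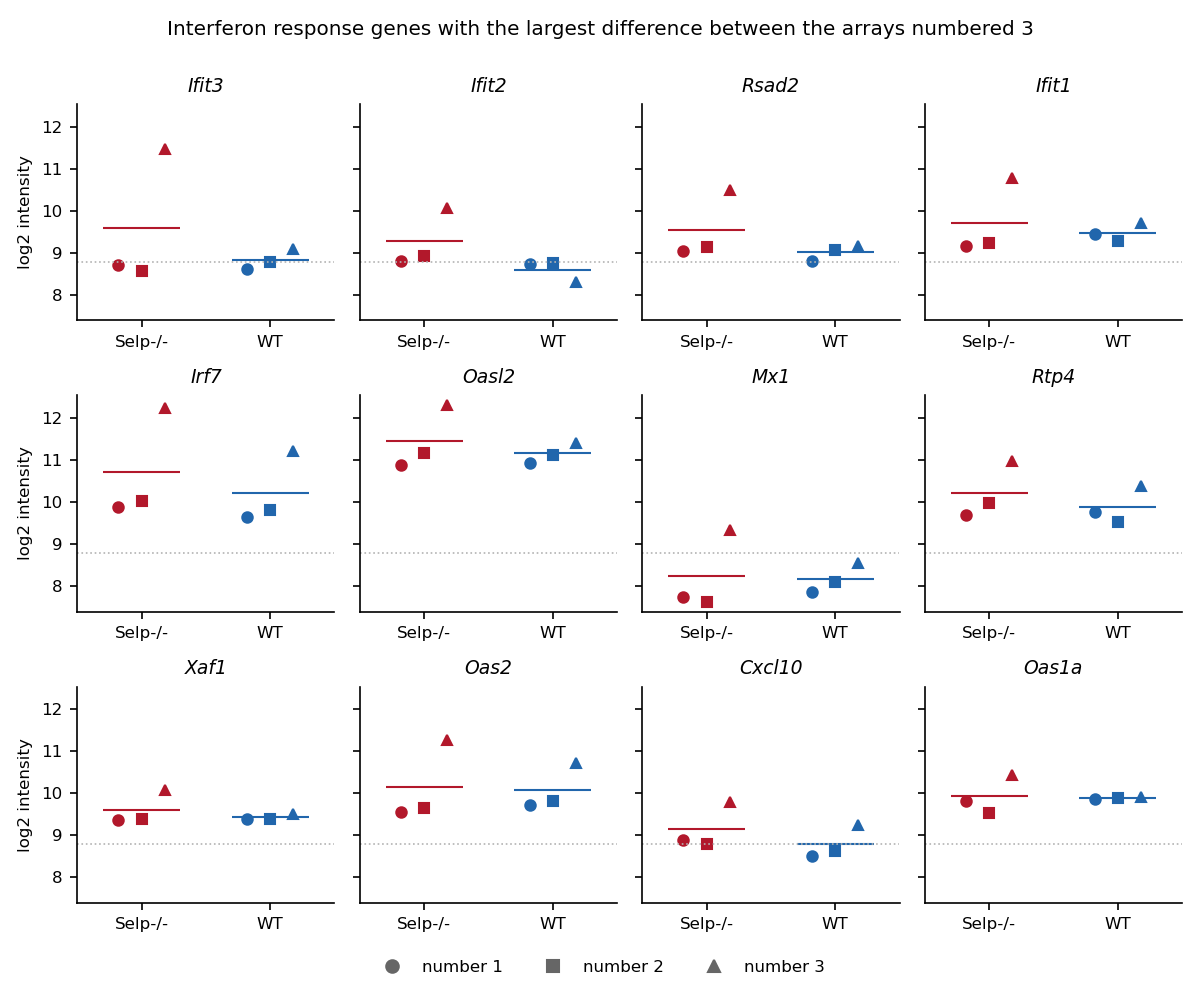
Log2 intensity on each array of the 12 interferon response genes with the largest differences between the arrays numbered 3, Selp-/- left of WT, with bars at the genotype means and a dotted line at the filter level of 8.79. Ifit3 reaches 11.49 on Selp-/- 3 and stays between 8.56 and 9.10 on the other 5 arrays, while Irf7 is high on both arrays numbered 3 (12.24 in Selp-/- and 11.22 in WT).

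Among the transcription factors, Irf7, which amplifies type I interferon production, measured 9.88, 10.02 and 12.24 in Selp-/- and 9.64, 9.80 and 11.22 in WT. Both arrays numbered 3 were high, and the Selp-/- array lay above the WT array in every number, by 0.24, 0.22 and 1.02. The difference was 0.49 (SE 0.71). Irf1, which drives genes induced by interferon gamma, measured 10.24, 10.56 and 10.11 in Selp-/- and 10.52, 10.20 and 10.02 in WT on 1 probe set, and the genotypes overlapped. Its second probe set lay at 9.42, 9.46 and 9.26 in Selp-/- and at 9.51, 9.35 and 9.06 in WT. Stat2 and Irf9, partners in the factor that binds the ISRE, had differences of 0.10 and 0.09.

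All 8 genes for nucleic acid sensors or oligoadenylate synthetase family proteins had a difference above 0 on number 3, with a median of 0.46. Of the same genes, 4 of 8 were above 0 on number 1 and 4 of 8 on number 2. Oasl2, of the oligoadenylate synthetase family, measured 10.89, 11.17 and 12.31 in Selp-/- and 10.94, 11.13 and 11.42 in WT. Selp-/- 3 was the high array. Oas2, which makes the oligoadenylate that activates RNase L, measured 9.56, 9.66 and 11.27 in Selp-/- and 9.72, 9.83 and 10.72 in WT. Both arrays numbered 3 were high, and Selp-/- lay below WT on numbers 1 and 2. Oas1a, a synthetase with several close copies, measured 9.81, 9.53 and 10.45 in Selp-/- and 9.87, 9.89 and 9.91 in WT, which was flat over the WT arrays. Ifih1, a sensor of long double-stranded RNA, had a difference of 0.51 on number 3, and Ddx58, the sensor RIG-I, one of 0.31. Zbp1, a sensor of Z-form nucleic acid, was above WT by 0.37, 0.34 and 0.09 on the numbers 1, 2 and 3, so that its smallest difference was on number 3. Eif2ak2, the kinase PKR, and Oasl1 had differences of 0.22 and 0.41 on number 3.

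Usp18, the protease that removes Isg15 from proteins and restrains the type I receptor, measured 9.75, 9.82 and 11.50 in Selp-/- and 9.57, 9.80 and 11.18 in WT. Both arrays numbered 3 were high by a like amount, and the difference was 0.17 (SE 0.59). Trim25, a ligase that acts on RIG-I, measured 10.60, 10.38 and 10.998 in Selp-/- and 10.67, 10.55 and 10.69 in WT, and the genotypes overlapped.

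Rsad2, the enzyme viperin, which makes a nucleotide that ends viral RNA chains, measured 9.04, 9.14 and 10.49 in Selp-/- and 8.82, 9.07 and 9.17 in WT. Selp-/- 3 stood out, at a 2.50-fold ratio to WT 3, and the difference was 0.54 (SE 0.38). Rtp4, a chaperone of receptors, measured 9.69, 9.99 and 10.98 in Selp-/- and 9.76, 9.54 and 10.38 in WT. Xaf1, an interferon-induced promoter of cell death, measured 9.37, 9.40 and 10.07 in Selp-/- and 9.40, 9.40 and 9.52 in WT, with 5 arrays close together below Selp-/- 3. Isg20, an exonuclease, went the other way on number 3. It measured 11.16, 11.02 and 10.83 in Selp-/- and 10.75, 10.76 and 10.98 in WT. Bst2, or tetherin, which holds budding virus at the cell surface, measured 9.95, 10.09 and 10.75 in Selp-/- and 10.22, 9.85 and 10.44 in WT, with overlap of the genotypes.

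The antiviral GTPases of the Mx family lay below the filter and were not tested. Mx1 measured 7.75, 7.63 and 9.33 in Selp-/- and 7.86, 8.09 and 8.56 in WT, with Selp-/- 3 the only array above the filter level of 8.79. The Mx1 gene is known to be defective in most inbred mouse strains, C57BL/6 included. Mx2 ranged from 7.50 to 8.10 in Selp-/- and from 7.55 to 8.01 in WT.

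The tested guanylate-binding protein, immunity-related GTPase and antigen processing genes had genotype differences between -0.08 and 0.16. Gbp3, a guanylate-binding protein that acts on vacuoles with microbes, measured 9.87, 9.95 and 9.61 in Selp-/- and 9.85, 10.15 and 9.30 in WT, and the arrays numbered 3 were its lowest in both genotypes. Irgm1, a regulator of immunity-related GTPases, measured 10.20, 10.27 and 10.52 in Selp-/- and 10.25, 10.29 and 10.13 in WT. Iigp1, another of these GTPases, was not tested and had its lowest level on the array numbered 3 of each genotype. Tap1, a subunit of the peptide transporter for antigen presentation, measured 11.12, 11.67 and 11.47 in Selp-/- and 11.16, 11.35 and 11.27 in WT. Psmb9, a subunit of the immunoproteasome, measured 10.56, 10.74 and 10.59 in Selp-/- and 10.62, 10.75 and 10.76 in WT, and its difference of -0.08 (SE 0.12) turned to 0.06 without normalization. For these antigen processing genes the median difference on number 3 was 0.15. Psmb8, also of the immunoproteasome, had a difference of 0.02.

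Cxcl10, a chemokine that attracts activated T cells, measured 8.88, 8.81 and 9.79 in Selp-/- and 8.50, 8.64 and 9.25 in WT. Selp-/- lay above WT in every number, by 0.38, 0.17 and 0.54, and the difference of 0.36 (SE 0.31) had an adjusted p of 1 in limma.

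Most members were highest on an array numbered 3. Of 32 probe sets, 23 had their highest level of all 6 arrays on Selp-/- 3 and 3 on WT 3, against 17.1% and 19.5% of all probe sets. Ifit3 and Ifit2 are among the 23, and each passed the filter only through Selp-/- 3. Ifit3 is also counted as higher in the comparison that follows. The arrays numbered 3 were compared with the numbers 1 and 2 in limma, with a mean for each genotype and number class. The lone array of a class is assumed to vary like the others, and the split was made knowing that these arrays stand apart. Averaged over the genotypes, 19 of 32 probe sets of 18 genes were higher on number 3, against 8.53% of all probe sets, and 1, Gbp3, was lower, against 10.5% of all. Irf7 was higher by 1.90 (adjusted p = 4.33e-05 in limma), Ifit3 by 1.63, Usp18 by 1.60 and Oas2 by 1.30. Gbp3 fell by 0.50 (adjusted p = 0.0338). No call was made for Ifit2, Ifih1, Oas1a, Trim25, Irgm1, Isg20, Tap1, Psmb8, Psmb9, Irf9 or either probe set of Irf1.

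The rise on number 3 was measured in each genotype by itself. In Selp-/-, 16 of 32 probe sets were higher on number 3, against 3.19% of all, with a median effect of 0.79 over the members. In WT, 8 of 32 were higher, against 5.14% of all, with a median effect of 0.34. Irf7, Stat2, Zbp1, Oas2, Usp18, Cxcl10 and 1 probe set of Ifitm1 were higher in both genotypes. The array numbered 3 exceeded the mean of the others by 2.85 in Selp-/- and by 0.41 in WT for Ifit3, and by 1.71 in Selp-/- and by 1.5 in WT for Usp18. Ifit3 and Ifit2 are counted among the 16, and each passed the filter only through Selp-/- 3.

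**Figure D3:**
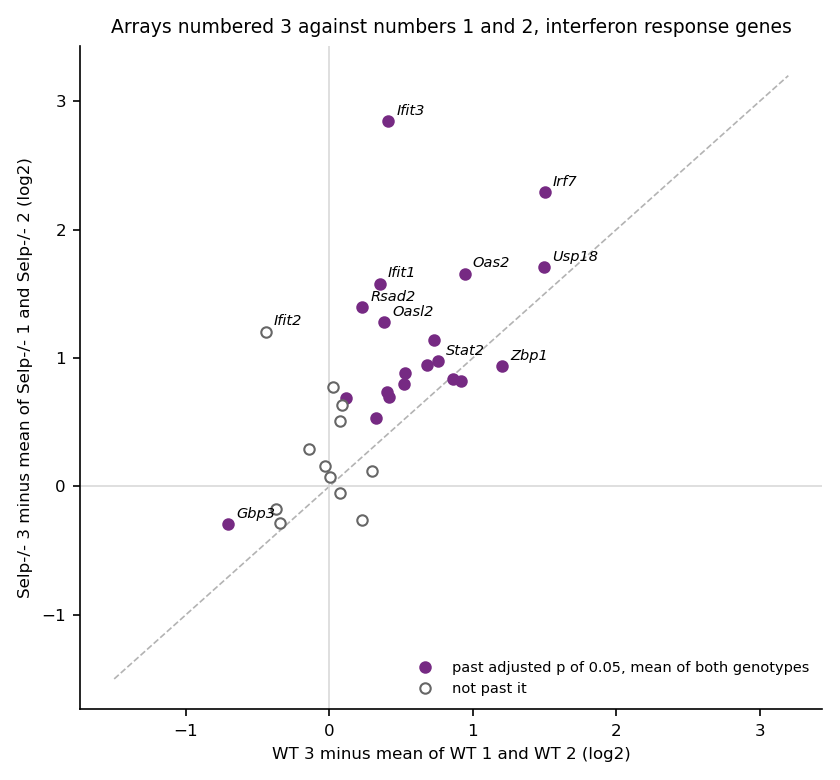
Level on the array numbered 3 minus the mean of numbers 1 and 2 (log2), Selp-/- on the vertical and WT on the horizontal axis, for each tested probe set of an interferon response gene, filled where the mean effect over the genotypes passed an adjusted p of 0.05 and with a dashed line of equal effects. Irf7 (2.29 in Selp-/- and 1.5 in WT) and Usp18 (1.71 in Selp-/- and 1.5 in WT) are high in both genotypes, and Ifit3 (2.85 in Selp-/- and 0.41 in WT) lies far above the line.

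The difference between these effects was tested as an interaction. Ifit3 was the 1 member called (0.0521% of all probe sets, 9 in number), with an interaction of 2.44 (SE 0.25, adjusted p = 0.0274 in limma). Each arm for number 3 is 1 array, and Ifit3 passed the filter only through Selp-/- 3, since its mean over the other 5 arrays was 8.75, below the filter level of 8.79. The same holds for Ifit2, with a mean of 8.71. The call was lost with no filter on dim probe sets (adjusted p = 0.153), and Ifit3 lay below a filter at the 60th percentile, so it is given as a description of these arrays. Ifit2 had an interaction of 1.65 (adjusted p = 0.0948), Ifit1 of 1.23 (adjusted p = 0.319) and Rsad2 of 1.17 (adjusted p = 0.399), none of which passed. The interaction was above 0 for 26 of 32 members, Ifit3 and Ifit2 among them. Its median was 0.31, beside -0.0046 over all probe sets, for which the share above 0 was not counted.

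Genes that make or carry the interferon signal gave no call between the genotypes in limma, with or without the block. The same held for all tested probe sets (0% called), of which 51.8% had a difference above 0. Of 11 interferon genes, 3 were tested and all 3 had a difference below 0, among them Ifnl2 at -0.11. Ifnb1, the interferon beta gene, named after its values were seen, was below the filter and measured 7.91, 7.87 and 8.39 in Selp-/- and 7.79, 7.66 and 8.02 in WT. Of 6 receptor genes, 5 were above 0 with a median of 0.06, and Ifnar2, a subunit of the type I receptor, had a difference of 0.15 (SE 0.13). Of 13 tested kinases, STATs and IRFs, 7 were above 0 and 6 below. Of 10 negative regulators, 4 were above 0 and 6 below.

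A wider set of 48 interferon-induced genes outside the 39, of which 35 were tested, had 25 differences above 0 and 10 below, a median of 0.10, and 0 calls. Over all probe sets, 51.8% were above 0, the median was 0.0054 and 0% were called. On number 3, 29 of the 35 were above 0 and 8 over 0.5, where 50.1% and 2.3% of all probe sets were. On numbers 1 and 2 the medians were 0.04 and -0.03. Slfn5, a Schlafen family gene, measured 9.13, 9.33 and 10.93 in Selp-/- and 8.88, 9.18 and 9.36 in WT, and its difference of 0.66 had an SE of 0.46. Cmpk2, a mitochondrial nucleotide kinase encoded next to Rsad2, measured 9.94, 9.32 and 10.37 in Selp-/- and 9.28, 9.44 and 9.52 in WT. Against numbers 1 and 2, 10 of the 35 were higher on number 3 (8.53% of all probe sets) and 2 were lower (10.5% of all).

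Among genes chosen after their values were seen, Tlr7, a sensor of single-stranded RNA in endosomes, measured 8.51, 8.40 and 10.31 in Selp-/- and 8.72, 8.82 and 9.23 in WT, with Selp-/- 3 the high array. Ifngr2, a subunit of the interferon gamma receptor, measured 11.05, 10.69 and 12.06 in Selp-/- and 10.77, 10.54 and 12.27 in WT. Both arrays numbered 3 were high without a larger value in Selp-/-. Socs1, an inhibitor of Jak kinases, measured 9.39, 9.84 and 10.30 in Selp-/- and 9.19, 9.24 and 10.94 in WT, where WT 3 was the high array.

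Markers of other cell types moved with the arrays numbered 3. The monocyte and macrophage list had 14 of 16 genes measured and 11 tested. Its summed normalized intensity was 10905, 11442 and 42515 on Selp-/- 1, 2 and 3, against 11713, 10882 and 25566 on WT 1, 2 and 3. It was thus highest on the same array as most interferon response genes. Of the 11 tested markers, 7 lay over 0.5 higher on Selp-/- 3 than on WT 3, against 2.3% of all probe sets. The other way went 3 of the 11, Ccr2, a chemokine receptor, at -0.60, Adgre1, a macrophage surface receptor, at -0.46 and Mrc1, the mannose receptor, at -0.27, named after their values were seen. Below the filter level lay 8, 4 and 1 of the 14 genes in Selp-/- and 7, 5 and 3 in WT. Clec7a, a receptor for fungal glucans, measured 8.73, 8.92 and 11.75 in Selp-/- and 8.44, 8.79 and 10.29 in WT, and Lyz2, lysozyme, 11.78, 11.62 and 13.92 in Selp-/- and 11.95, 11.58 and 12.53 in WT.

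The plasmacytoid dendritic list, for the cells that make most type I interferon, had 8 genes tested and a sum of 6615, 7385 and 7303 in Selp-/-, against 7779, 7920 and 5963 in WT. Mast cell and basophil markers summed to 7875, 9659 and 47409 in Selp-/- and to 8328, 7638 and 63423 in WT, and neutrophil markers to 16627, 6886 and 29594 in Selp-/- and to 21978, 6570 and 38134 in WT. Both of these lists were high on the arrays numbered 3 and larger on WT 3 than on Selp-/- 3, the opposite of the interferon response genes. Of the other lists, conventional dendritic markers summed to 13525 on Selp-/- 3 and 21221 on WT 3, T and NK lymphoid markers to 14704 and 13916, and B lymphoid markers to 5180 and 6555. The part of these cells in the differences on number 3 was not tested, since each genotype has 1 such array.

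**Figure D4:**
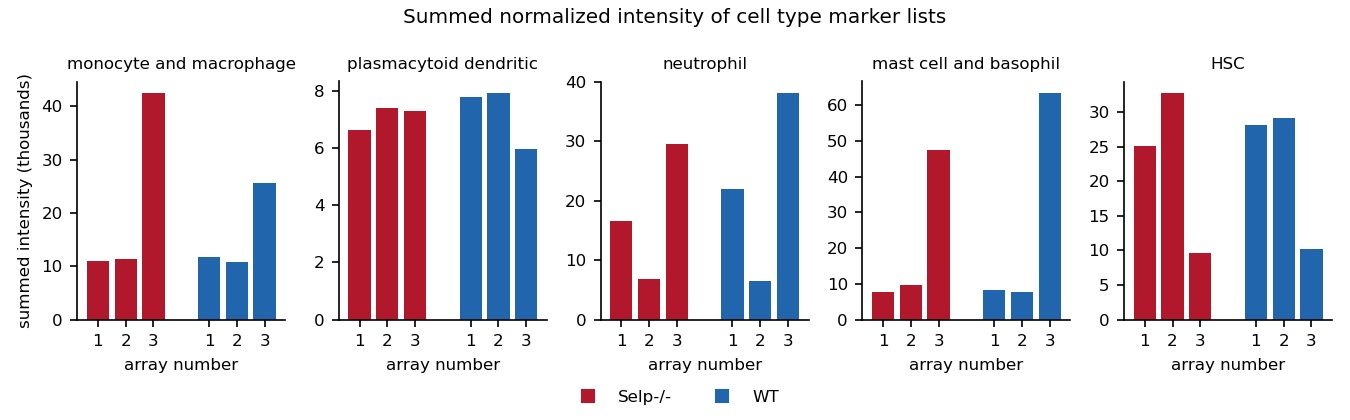
Summed normalized intensity of 5 cell type marker lists by array, 1 bar per array, Selp-/- left of WT, each panel with its own scale. Monocyte and macrophage markers sum to 42515 on Selp-/- 3 and 25566 on WT 3, while HSC markers sum to 9580 on Selp-/- 3 and 10219 on WT 3.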

How the data were processed

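Expression in HSC was measured on 6 Affymetrix 1-colour arrays, 3 from Selp-/- and 3 from WT mice, grouped by the labels. The deposited values are linear intensities of 28815 probe sets per array, made by the authors with MAS5 of unstated version, as the submitters' processing notes record. Any scale factor is unknown.

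The intensities were background corrected with normexp (offset 50), converted to log2 and quantile normalized in limma 3.58.1 under R 4.3.3. Dim probe sets, with a mean level under the 40th percentile (log2 of 8.79), were left out. The remaining 17289 were fitted with lmFit and eBayes (trend) and two-sided tests, with Benjamini-Hochberg adjustment over all of them. The steps were run on simulated data with noise taken from the arrays numbered 1 and 2. The simulation of the genotype fit left out the difference of the arrays numbered 3. That of the interaction gave those arrays the same noise as the others. The simulations therefore do not show how the fits perform with arrays numbered 3 that stand apart. Arrays give no read depth, and their number limits the precision.

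The numbers of the arrays were checked for pairing by the correlation of deviations from the genotype means, which was 0.428, 0.526 and 0.814 for numbers 1, 2 and 3. The deviations of a genotype cancel out over its arrays, so arrays numbered 3 that stand apart can raise all of these values. Correlations between arrays of unlike number were not compared, so pairing of numbers 1 and 2 is not shown. A fit with the number as a block was run beside the unblocked fit.

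Gene names came from the platform annotation updated through a RefSeq table. Of all probe sets, 21780 had 1 symbol, 1605 several and 5430 none, and no value was taken from probe sets with several. The members, gene lists, tests and alternatives were chosen with earlier results of these data known. Values in every array are given for the 12 members with the largest differences on number 3, the 6 of smallest p and the extremes of each role group. Of each further list up to 4 genes of smallest p may be named. Lists are summarised on the brightest probe set of each gene. Alternatives were no background correction, median centring, the values as deposited, no filter, a filter at the 60th percentile, the block, the numbers 1 and 2 alone, and leaving out each array.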

Additional observations from a re-analysis of the deposited data

Results flagged for a closer look

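The genotype difference of Ifit3 was not alike across the arrays. Between the arrays numbered 3 it was 2.38 on the log2 scale, against 0.11 on number 1 and -0.22 on number 2, and the test of the difference between them gave 2.44 (SE 0.25, adjusted p = 0.0274 in limma). The estimate for the arrays numbered 3 rests on 1 Selp-/- and 1 WT array. Ifit3 passed the filter on dim probe sets only through Selp-/- 3, since its mean over the other 5 arrays was 8.75 and the filter level 8.79. With no filter the value of 2.44 had an adjusted p of 0.153 in limma, and with a filter at the 60th percentile Ifit3 was not tested. The tested difference was 2.18 with no background correction and 2.52 with median centring. These settings use the same arrays and the same kind of filter, so they add no separate evidence. The split of the arrays was made with earlier results known, and no cause was tested.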

How the results depend on the processing

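The replicate block made 0 calls, with a median of 0.12 over the members and 28 above 0, and it changed no call. As deposited without normalization, the median of number 1 was 0.20, members over 0.5 on number 3 were 7, members lower on number 3 were 0, interaction calls were 2 among members and 57 in all, and Psmb9 turned to 0.062. The shift of all probe sets in that setting was 0.11 for the genotype difference. With no filter, members lower on number 3 were 0, interaction calls were 0 among members and 0 in all, and Ifit3 kept 2.44 with an adjusted p of 0.153 in limma. With the filter at the 60th percentile interaction calls among members were 0, and Ifit3 gave no value. On numbers 1 and 2 alone, 4 probe sets were called lower in Selp-/-, 0 members were called and 16 members were above 0. There Ifit3 turned to -0.053, Ifit1 to -0.16, Oasl2 to -0.0077, Xaf1 to -0.014, Oas2 to -0.17, Oas1a to -0.21, Trim25 to -0.12, Bst2 to -0.015, Irgm1 to -0.034 and Gbp3 to -0.092. Leaving out each array in turn gave 0 calls in either direction. The members' median ran from -0.08 without Selp-/- 3 to 0.28 without Selp-/- 1, and the number above 0 from 10 without Selp-/- 3 to 30 without Selp-/- 1. The genotype difference ran from -0.19 to 1.27 for Ifit3, 0.27 to 0.91 for Ifit2, 0.08 to 0.80 for Rsad2, -0.27 to 0.99 for Irf7, -0.28 to 0.53 for Ifit1, -0.14 to 0.58 for Oasl2, -0.48 to 0.39 for Oas2, -0.22 to 0.24 for Oas1a, -0.40 to 0.67 for Usp18, -0.050 to 0.60 for Rtp4, -0.053 to 0.30 for Xaf1, -0.15 to 0.25 for Bst2, -0.19 to 0.24 for Gbp3, -0.52 to 0.14 for Ifitm1, -0.070 to 0.18 for Irf1 and -0.15 to 0.16 for Trim25. For Ifitm1 and Irf1, with 2 probe sets each, the one of smallest p was taken anew in each run. The ends of their ranges therefore come from different probe sets and are not the range of either. The sign was kept for Ifit2 and Rsad2, given above, and for Cxcl10 (0.05 to 0.59) and Isg20 (0.10 to 0.26). It was also kept for Tap1 (0.03 to 0.31), Irgm1 (0.01 to 0.18) and Psmb9 (-0.13 to -0.05). With 3 arrays per genotype, and 1 per genotype and number, small differences were beyond the precision of the data, and dim probe sets such as those of Mx1 lie near the background.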

Other observations

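Of the 9 probe sets called for the interaction of genotype with number 3, Ifit3 and Ccr9 were above 0 and Xist, Ccl24, Cldn11 and Ccn3 below 0, while 3 carried no gene name. Ccr9, a chemokine receptor of plasmacytoid dendritic cells and lymphocytes, measured 9.12, 9.29 and 10.27 in Selp-/- and 9.78, 9.54 and 8.55 in WT, and its interaction was 2.17 (adjusted p = 0.0487 in limma). Selp-/- 3 and WT 3 were its extremes. Ccr9 is 1 of 8 tested markers of plasmacytoid dendritic cells, of which 5 lay above 0 and 3 below on number 3, with a median genotype difference of -0.04. Siglech, a lectin of these cells, lay above WT by 0.90 on number 3, and Spib, a transcription factor of these cells, had a difference of -0.56 there.

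The interaction of Xist was -4.07. The Y-linked gene Eif2s3y, a translation factor subunit, had deposited intensities of 136, 328 and 952.5 in Selp-/- and of 545.5, 118 and 597.5 in WT. Kdm5d, a Y-linked histone demethylase, had 270, 492 and 739.5 in Selp-/- and 485, 238.5 and 578.5 in WT. Both were highest on Selp-/- 3, where Xist was lowest. Within both genotypes these X- and Y-linked levels differed between arrays, and the part of sex in the differences on number 3 was not tested. Eif2s3y, Kdm5d, Ccl24, Cldn11 and Ccn3 were chosen after their values were seen.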
